A study of Rattus norvegicus with 6 samples.

Results

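Magoh and Cse1l encode proteins of the traffic between nucleus and cytoplasm, and their transcripts were measured in rat carotid arteries with and without balloon injury. The members were set by probe: A_44_P535706, which carries the Magoh accession NM_001100536, and A_44_P1017335, which carries the Cse1l accession NM_001108607. They are 2 of 38 protein-coding genes that could be named among the 38321 non-control probes of the array. Both are among the 29 named genes bright enough to test. The files give neither the exon nor the strand position of the probes.

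MAGOH forms, with its partner RBM8A, a core of the exon junction complex, which is left on messenger RNA where introns were removed and marks it for export, localisation and nonsense-mediated decay. CSE1L (also called CAS) is the export receptor that, together with RAN, returns importin alpha from the nucleus so that it can carry further cargo inward. Rats also have Magohb, a paralogue with a nearly identical protein; whether the Magoh probe also binds its transcript was not tested.

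The tissue was common carotid artery of adult male Sprague-Dawley rats of 250 to 300 g, with 3 sham and 3 injured samples and 1 single-colour array for each. In the injured group a 2F Fogarty catheter had been used, under phenobarbital sodium, to damage the inner lining of the vessel (right common carotid), and arteries were taken 14 days later. The sample records give phenobarbital, catheter size and collection at week 2 alike for both groups. The labels call the controls sham, normal or uninjured, which leaves unsaid whether they were operated on. Nor do they state that each sample is a separate animal, and a p-value here reflects only the variation from sample to sample. Across the tested probes measured on every array, 2 arrays stood apart from their group: injured 1 correlated with sham 1 at r = 0.975 but with injured 2 and injured 3 at 0.600 and 0.606, and sham 3 with injured 2 and injured 3 at 0.893 and 0.897 but with sham 1 at 0.751 and with sham 2 at 0.848. The arrays were kept in the groups their labels give, and whether labels were exchanged was not tested, so each difference below holds for the groups as labelled. Whole arteries were used, where fewer cells of a type and less RNA per cell cannot be told apart.

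The upstream sequences of the 2 genes are shown because both windows hold letters of the cyclic AMP response element (CRE), the site bound by CREB and ATF factors, and were picked for it. Their signals also correlated over the arrays (r = 0.987), as did those of many other probes: 26.9% of tested probes measured on every array exceeded r = 0.9 with Magoh and 25.1% with Cse1l. The stretches run 5′ to 3′ from RefSeq (GRCr8) and end at the base before the annotated gene start, so that no base annotated to that gene is shown. Whether another annotated gene overlaps them was not checked. Capitals mark TGACGTCA or its 7-base part GACGTCA, read on both strands. The Magoh stretch is chr5:127867836-127868043 on the plus strand and the Cse1l stretch is chr3:176059988-176060182 on the plus strand.
Magoh: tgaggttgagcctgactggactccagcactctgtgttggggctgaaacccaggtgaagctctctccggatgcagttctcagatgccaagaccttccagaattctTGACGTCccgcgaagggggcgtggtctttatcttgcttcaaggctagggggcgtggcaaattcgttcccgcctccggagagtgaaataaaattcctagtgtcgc
Cse1l: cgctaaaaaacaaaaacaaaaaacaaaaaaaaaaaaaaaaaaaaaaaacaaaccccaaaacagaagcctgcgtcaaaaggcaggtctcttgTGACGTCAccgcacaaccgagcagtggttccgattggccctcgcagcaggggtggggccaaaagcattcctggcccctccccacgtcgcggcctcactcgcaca

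The full element TGACGTCA stood in the Cse1l window, 159 bases before the start site of the table, and not in the Magoh window. Of 33469 rat windows of 300 bases, from 250 before to 50 after the start site, 1.83% held it. The 7-base part GACGTCA was found at least once in 3.22% of windows, and the share with 2 positions was not counted. It stood in the windows of both genes, at 2 positions each. In Cse1l both lie within the 1 full element, and in Magoh they begin 146 and 35 bases before the start site of the table. For both genes that start site lies downstream of the annotated gene start used for the printed stretches. The second Magoh match lies beyond the printed stretch, past the annotated gene start, so it is not upstream of the gene as annotated. A CCAAT box (CCAAT), present in 37.5% of windows, stood in Cse1l and not in Magoh. The GC box GGGCGG, the TATA box TATAAA, the E-box CACGTG and the AP-1 site TGAGTCA were in neither window, read on both strands; they were in 33.1%, 14.2%, 6.42% and 4.63% of all windows. The motifs, too, were picked with these windows in view. A match of letters is a description and not a binding site.

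Magoh was bright on every array. The geometric mean of its 10 spots was 2382, 2537 and 491 intensity units for sham 1, 2 and 3, and 2236, 576 and 684 for injured 1, 2 and 3. Before any scaling, then, sham 3, injured 2 and injured 3 were the dim ones and injured 1 lay with sham 1 and sham 2. Sham 3 was also the dimmest array as a whole, with a 75th percentile of 89.5 intensity units over all probes against 214 to 284 on the other 5. Relative to each array's 75th percentile, in log2 units, the sham values of Magoh were 3.28, 3.16 and 2.46, and the injured values 3.29, 1.43 and 1.57. The groups overlap because injured 1 lies above all 3 sham arrays, while injured 2 and injured 3 lie below all of them.

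Cse1l spots had the same pattern with a wider span. Their geometric mean was 3851, 4203 and 710 intensity units for sham 1, 2 and 3, and 2874, 537 and 818 for injured 1, 2 and 3. On the scaled log2 scale its sham values were 3.97, 3.89 and 2.99, and its injured values 3.65, 1.33 and 1.83. Injured 1 lies between sham 3 and sham 2, so these groups overlap as well. In 8 of the 9 possible pairs of an injured with a sham array Cse1l was lower in the injured one, and for Magoh this held in 6 of 9.

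**Figure D1:**
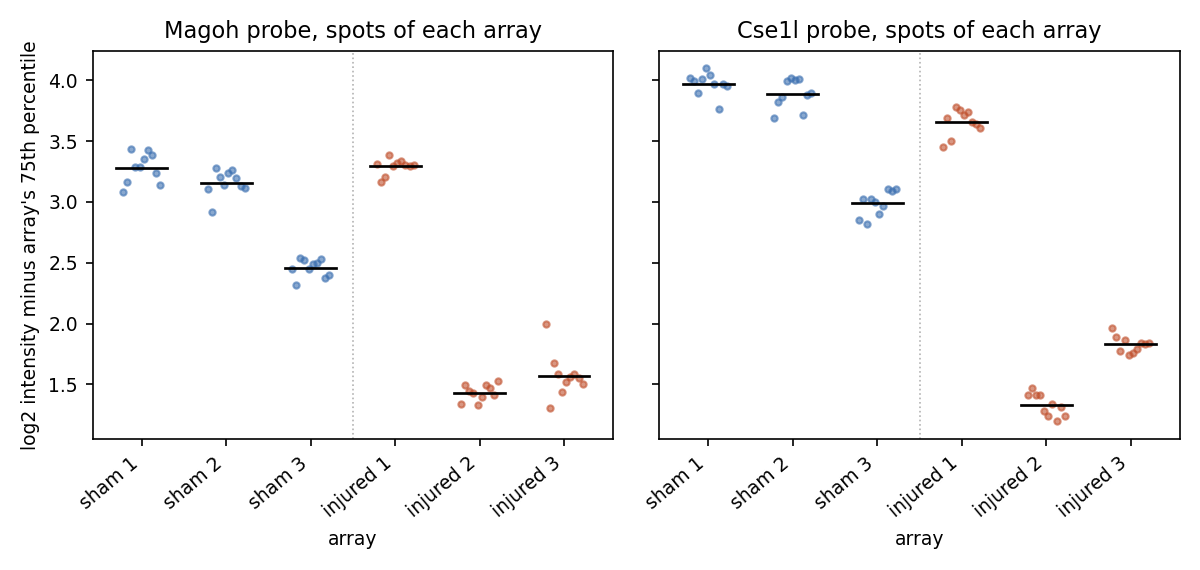
Signal of the Magoh probe (left) and the Cse1l probe (right) on each array, in log2 intensity minus the array's 75th percentile. Each point is 1 of 10 spots and each black line their mean. Injured 1 sits with the sham arrays for both probes, and injured 2 and injured 3 sit below every sham array.

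Spots within an array varied far less than arrays within a group. The SD over the 10 spots was 0.065 to 0.18 log2 units for Magoh and 0.066 to 0.12 for Cse1l. None of the 120 spots was marked as an outlier or saturated, and all 120 were well above background. The 3 injured arrays spanned 1.86 log2 units for Magoh (3.63-fold) and 2.32 for Cse1l (5.01-fold). The 3 sham arrays spanned 0.82 (1.77-fold) and 0.98 (1.98-fold). In the order of arrays, injured 1 and sham 1 differed for Magoh by less than the SD of their spots. The Magoh spots of injured 2 (1.33 to 1.52) lie within the range of those of injured 3 (1.31 to 1.99). For Cse1l, the spots of injured 3 (1.74 to 1.96) lie above those of injured 2 (1.20 to 1.47).

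Whether either transcript differs between injured and sham arteries was tested with limma over all probes. Neither passed with all arrays weighted equally. The sham mean of Magoh was 2.97 ± 0.45 and the injured mean 2.10 ± 1.04 (SD, n = 3 per group). The log2 difference, injured minus sham, came to -0.87 ± 0.66 (SE), its 95% interval reached from -2.48 to 0.74, and the adjusted p in limma was 0.599. For Cse1l the sham mean was 3.62 ± 0.55 and the injured mean 2.27 ± 1.22 (SD, n = 3 per group). Here the log2 difference came to -1.35 ± 0.74 (SE), its interval reached from -3.15 to 0.46, and the adjusted p in limma was again 0.599. As ratios of the injured to the sham level these intervals run from 0.18 to 1.67 for Magoh and from 0.11 to 1.37 for Cse1l, a range that holds both a large fall and equal levels. An exact two-sided permutation of the array labels gave p = 0.4 for Magoh and 0.2 for Cse1l, where 0.1 is the smallest that 3 against 3 arrays allow.

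Over all 24718 tested probes limma called 0% (0 probes, 0 of them lower in injured arteries), with 1094 at an unadjusted p under 0.05 (20335 probes were called with array weights), and the share of probes whose groups do not overlap was 11.8% of those measured on every array. The median log2 difference over all tested probes was 0.10 and the median SE 0.78. A log2 difference as low as that of Cse1l or lower was found for 15.7% of tested probes, and as low as that of Magoh or lower for 26.3%. Among the 29 named genes the median was -0.87, which is Magoh itself, and 9 genes had a lower value than Cse1l.

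The values of both genes depend most on injured 1. Without it the log2 difference was -1.46 for Magoh (limma adjusted p = 0.0758) and -2.04 for Cse1l (limma adjusted p = 0.0595). Without injured 2 it was -0.53 and -0.88, and without injured 3 it was -0.60 for Magoh. With sham 3 and injured 1 both left out, the 2 arrays that stand apart from their groups, it was -1.72 for Magoh (limma adjusted p = 0.00269) and -2.35 for Cse1l (limma adjusted p = 0.00261), but that choice of arrays followed the data and 18151 probes were called with it. Array weights lower the part of arrays that stray from their group and were estimated from these same arrays. They came to 0.063 for injured 1 and 0.15 for sham 3. With them both genes passed, at -1.64 for Magoh (limma adjusted p = 0.000228) and -2.26 for Cse1l (limma adjusted p = 0.000143). In that fit 20335 of the 24718 tested probes were called, so passing does not set the 2 genes apart. The headers put sham 1 and all injured arrays on 1 shared scan and sham 2 and sham 3 on a scan each, sham 3 on the same day as the shared one, so that scan and group largely coincide. Within the shared scan the log2 difference was -1.18 for Magoh and -1.70 for Cse1l, with a single sham array.

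The sign of the difference depends on what it is measured against. Relative to each of 10 reference genes in turn, a scaling added after the data were seen, Magoh was lower in injured arteries for 7 and higher for 3, and Cse1l lower for 8 and higher for 2. Against Actb, the cytoskeletal actin, Magoh had a log2 difference of 1.28 ± 1.37 and Cse1l one of 0.80 ± 1.32 (SE). Against Hsp90ab1, a chaperone, these were 0.84 ± 0.82 and 0.36 ± 0.78 (SE). Against Rpl13a, a ribosomal protein, they were 0.20 ± 0.70 for Magoh and -0.28 ± 0.66 for Cse1l (SE). Against Gusb, a lysosomal enzyme, they were -0.97 ± 0.71 and -1.45 ± 0.79 (SE). Actb and Hsp90ab1 had larger negative differences on the 75th percentile scale than either gene, -2.15 and -1.71. Actb was also uneven within groups, at 4.62, 4.62 and 1.31 for sham 1, 2 and 3. For injured 1, 2 and 3 it was 4.40, -0.24 and -0.06. Hsp90ab1 and Rpl13a were likewise high on sham 1, sham 2 and injured 1 and lower on the rest. Gusb varied less, at 2.16, 2.09 and 2.82 for the sham and 2.72, 2.34 and 2.32 for the injured arrays. Under the 5 other backgrounds and scalings of the whole array the difference stayed negative, from -1.14 to -0.58 for Magoh and from -1.62 to -1.06 for Cse1l.

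**Figure D2:**
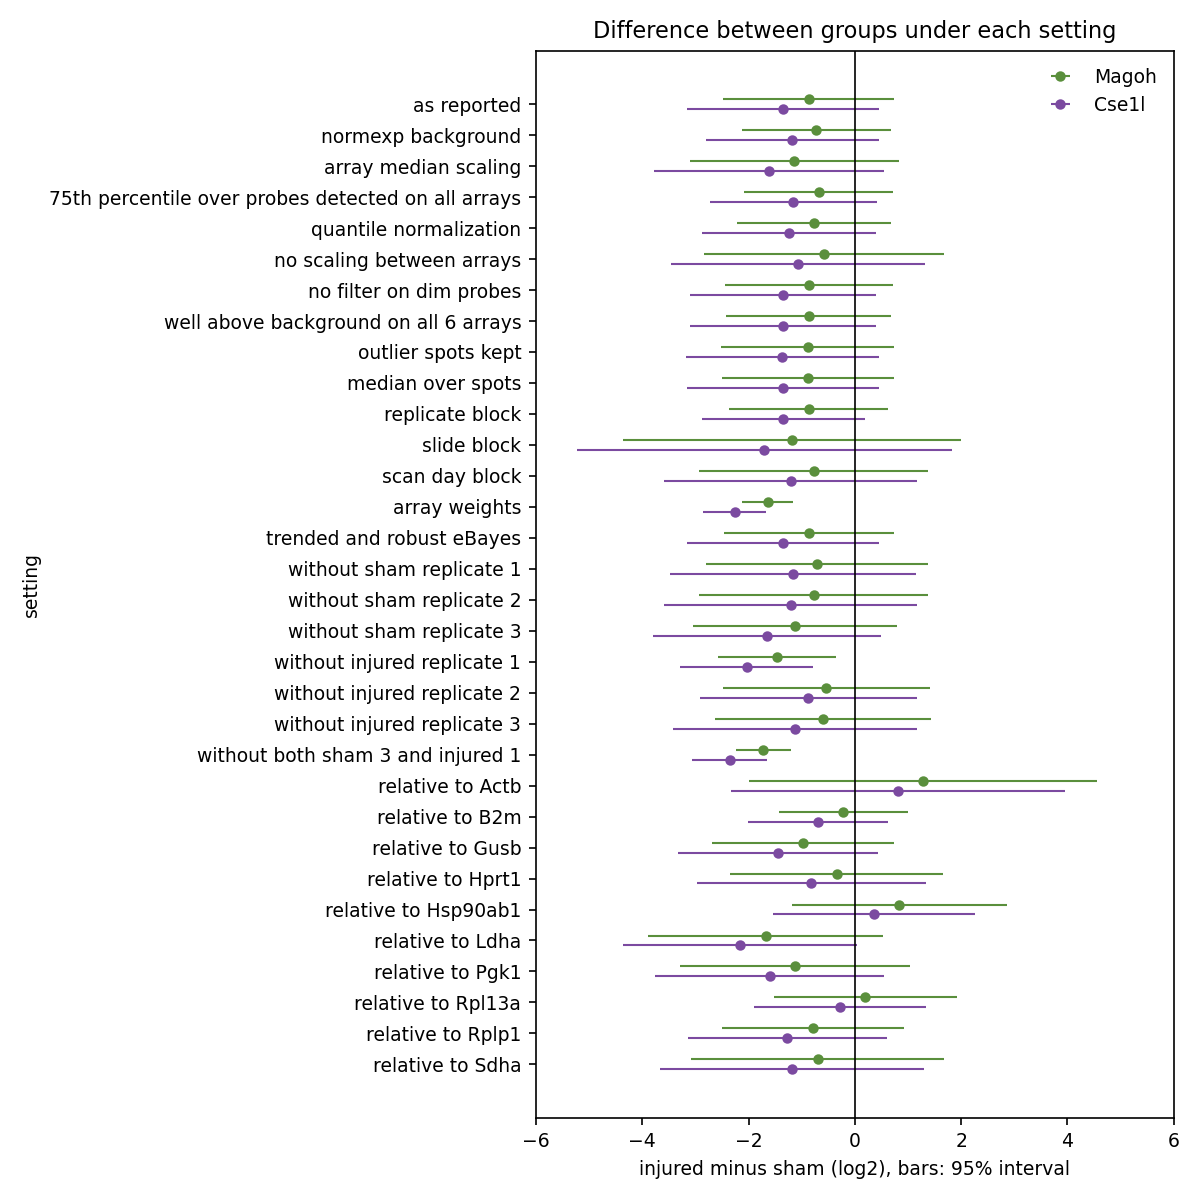
Log2 difference between injured and sham arteries for Magoh (green) and Cse1l (purple) under each processing choice, with 95% intervals. Points lie left of 0 except against Actb and Hsp90ab1 for both genes and against Rpl13a for Magoh, and intervals clear 0 only with array weights, without injured 1 and without both sham 3 and injured 1.

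Although each gene alone overlaps between the groups, the difference between the probes within an array does not. A shift of a whole array cancels in this quantity, and only its change between groups can be read, since probes differ in brightness for equal amounts of RNA. Cse1l minus Magoh was 0.69, 0.73 and 0.53 log2 units for sham 1, 2 and 3, and 0.36, -0.10 and 0.26 for injured 1, 2 and 3. Every injured value, injured 1 included, was below every sham value, with a gap of 0.17 between sham 3 and injured 1. The SE over spots was 0.036 to 0.060, which covers spots within an array and not the variation between samples. The sham mean was 0.65 ± 0.10 and the injured mean 0.17 ± 0.24 (SD, n = 3 per group), so Cse1l was lower by 0.48 log2 units relative to Magoh in injured arteries. Within the shared scan, sham 1 stood at 0.69 and all 3 injured arrays below it. The exact two-sided permutation test gave p = 0.1, the smallest it can give here. Of all 406 pairs of named genes, 18.2% had differences that did not overlap between the groups, so this pair is 1 of 74. With normexp background correction the sham values were 0.65, 0.69 and 0.46 and the injured values 0.34, -0.13 and 0.23, again with no overlap.

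**Figure D3:**
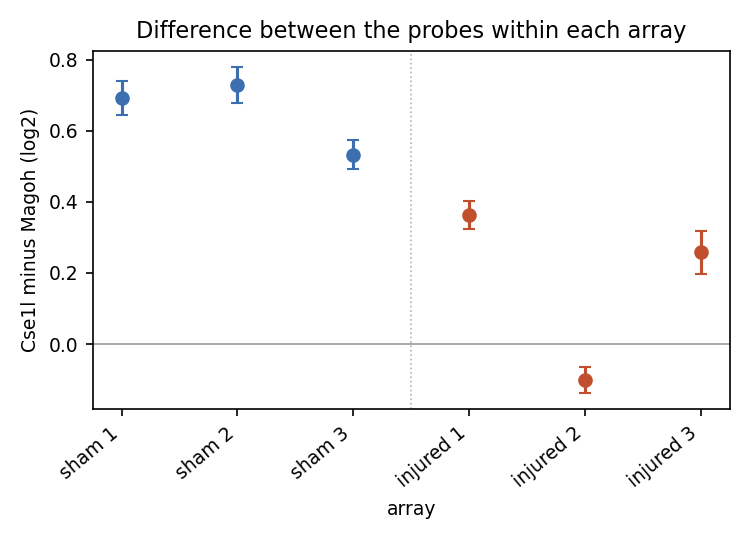
Cse1l minus Magoh within each array, in log2 units, with bars of 1 SE over the spots. The sham arrays lie between 0.53 and 0.73 and the injured arrays between -0.10 and 0.36.

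Set against the other named genes in this way, Cse1l did not overlap between groups in 6 of 28 pairs, and was the relatively lower partner in injured arteries in all 6: with Magoh, Ldha and Pgk1 (glycolytic enzymes), Nat1 (an N-acetyltransferase), Pop7 (a subunit of ribonuclease P) and Ptk2b (a focal adhesion kinase relative). Magoh did not overlap in 7 of 28 pairs. It was the lower partner with Ldha, Pop7 and Ptk2b and the higher one with Cse1l, Odf2l, Pdcd10 and Trim2. These shares are 21.4% and 25.0%, beside 18.2% for all pairs.

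Over the 6 arrays Magoh and Cse1l had a Pearson correlation of 0.987. Likeness is given as a description, since all genes share the 6 arrays and their scaling. The named genes most like Magoh were Ndfip1 (r = 0.999) and Ndfip2 (0.989), both adaptors of Nedd4 ubiquitin ligases, Hsp90ab1 (0.995), Nat1 (0.989) and Pdk3, a pyruvate dehydrogenase kinase (0.988), whose probe was well above background on 4 of 6 arrays. Those most like Cse1l were Ndfip1 (0.989), Magoh (0.987), Pdcd10, which is linked to cavernous malformations of brain vessels (0.981), Hsp90ab1 (0.974) and Odf2l (0.971), whose probe was well above background on 4 of 6 arrays. The least like were Slc28a2, a nucleoside transporter (-0.79 with Magoh and -0.81 with Cse1l), and Ppp2r2b, a phosphatase subunit (-0.69 and -0.59). Ndfip1 shows the shared shape at a larger scale, with 3.71, 3.44 and 1.25 for sham 1, 2 and 3 and 3.53, -1.53 and -1.19 for injured 1, 2 and 3. A correlation over 0.9 was common: 14 of 28 named genes reached it with Magoh and 15 of 28 with Cse1l, as did the shares of tested probes given with the upstream sequences, out of 24472. A negative correlation stronger than 0.9 in size was also common, at 22.6% of these probes with Magoh and 19.6% with Cse1l. The median r over these probes was 0.06 with Magoh and 0.02 with Cse1l. A strong correlation of either sign is thus common to many probes of these arrays, and the part of array-wide differences in it was not tested.

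**Figure D4:**
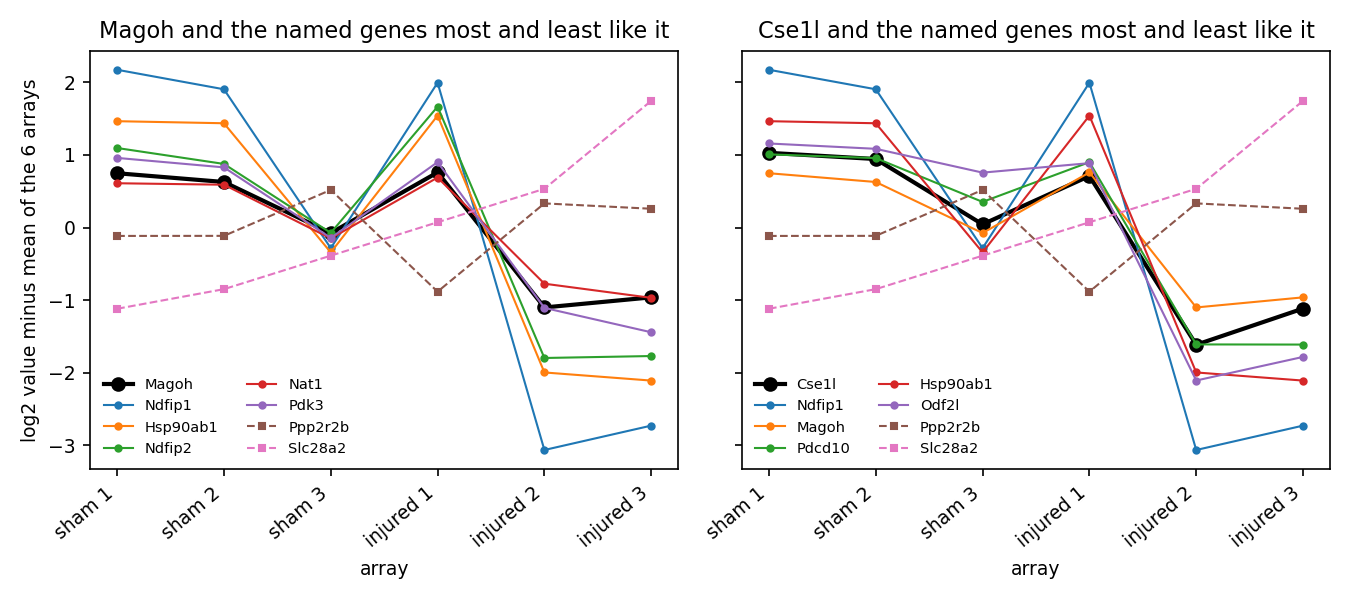
Magoh (left) and Cse1l (right) in black with the 5 named genes most like each (solid lines) and the 2 least like (dashed), as log2 values minus the mean of the 6 arrays; lines only guide the eye between arrays. The solid lines are high on sham 1, sham 2 and injured 1 and low on injured 2 and injured 3.

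The partners of both proteins could not be set beside them. Of 28 genes listed for the exon junction complex, its decay factors and messenger RNA export, 1 could be named on the array, Magoh itself. Of 42 genes listed for nuclear import and export receptors, RAN regulators and nucleoporins, 1 could be named, Cse1l. None of the 57 markers listed for cell types of the vessel wall and for proliferation could be named, so the labelled tissue was not checked against markers, and the cell makeup of the arteries is not analysed here.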

How the data were processed

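Per the file headers, each array file is the output of Agilent Feature Extraction 11.0.1.1: the deposited intensity of a spot is background-subtracted within its array, without scaling to other arrays. Flags for spots (well above background, saturated, outlying) are 0 or 1, per the file headers. The authors also deposited a table of normalized log2 values, made in a way that the sources do not give; it holds neither member, and its columns correlated with their own arrays at 0.997 to 0.999. On that table limma called 0 probes, with 1076 at an unadjusted p under 0.05. Log2 processed intensities were averaged over the spots of a probe, less outliers, and the 75th percentile of each array over non-control probes was subtracted. Probes well above background on at least 3 of 6 arrays were tested, 24718 in all, in limma 3.58.1 (lmFit, eBayes; R 4.3.3) with Benjamini-Hochberg adjustment and a threshold of 0.05. Of 62 probes named by accession, 39 matched a transcript of GRCr8. The fit was tested on simulated data.

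The members, gene lists and alternatives were chosen with earlier results of these data known. Named genes were the members, the 5 most and 2 least like each by Pearson correlation over 6 arrays, measured list members, and reference genes beside a member; other genes of the pair comparison were named after their values were seen. Alternatives covered background, scaling, filters, spots, blocks, array weights, eBayes settings and arrays left out. The normexp alternative, with an offset of 50, used median spot and background signals, since the files have no mean spot signal. The number of arrays limits the precision.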

Additional observations from a re-analysis of the deposited data

How the results depend on the processing

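Both log2 differences, Magoh and Cse1l, stayed negative and short of the threshold under the other backgrounds, scalings of the whole array, filters, spot summaries, shared-scan and scan-day blocks and eBayes settings, which says little since 0 probes passed there. The replicate block left them at -0.87 (limma adjusted p = 0.447) and -1.35 (limma adjusted p = 0.293) with 3 probes called. Deviations of same-numbered samples correlated at 0.83, -0.57 and 0.82, too few values to tell whether the numbers pair the samples. With array weights, estimated from these same arrays (0.063 for injured 1 and 0.15 for sham 3), both passed, at -1.64 and -2.26. In that fit 20335 of the 24718 tested probes were called. Without both sham 3 and injured 1 both passed, at -1.72 and -2.35, with 18151 called. Leaving out 1 array gave -1.46 to -0.53 for Magoh, -2.04 to -0.88 for Cse1l, 0 to 0 called probes and -0.57 to -0.34 for Cse1l minus Magoh. The sign turned for Magoh relative to Actb (1.28), Hsp90ab1 (0.84) and Rpl13a (0.20), and for Cse1l relative to Actb (0.80) and Hsp90ab1 (0.36); the larger negative differences of these reference genes set this by construction. Cse1l minus Magoh was -0.45 with normexp and -0.48 in pairs of like number (exact sign-flip p = 0.25, the smallest possible). Other scalings moved the median of all probes to -0.17 with median scaling and 0.38 with none.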
